A study of Macaca mulatta with 11 samples.

Results

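The genes described here encode enzymes that remove reactive oxygen species or detoxify small molecules. They were selected by gene symbol as glutathione peroxidases, peroxiredoxins, thioredoxin and glutaredoxin proteins, superoxide dismutases, catalase, sulfiredoxin, the enzymes of glutathione synthesis, quinone and heme enzymes, the NFE2L factors with KEAP1, glutathione transferases, metallothioneins, cytochromes P450, glucuronosyl- and sulfotransferases, aldehyde dehydrogenases, aldo-keto reductases, alcohol and short-chain dehydrogenases, carboxylesterases and epoxide hydrolases. AADAC and MOCOS were added by name, with their differences in these data already known. The steroid and sterol enzymes CYP17A1, CYP19A1 and CYP51A1 were left out. This gave 135 of the 14132 genes with a symbol on the array, measured by 236 probe sets.

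Superoxide dismutases turn superoxide into hydrogen peroxide, which catalase, glutathione peroxidases and peroxiredoxins remove. The glutathione peroxidases and peroxiredoxins do so at the expense of glutathione or thioredoxin, and both of these are kept reduced with NADPH. NRF2, the product of NFE2L2, is a transcription factor held back by KEAP1 that induces many of these genes, including those for glutathione synthesis. Cytochromes P450, esterases and dehydrogenases expose or create reactive groups on lipids, steroids, retinoids and xenobiotics, and the transferases then conjugate them. In the follicle, cumulus cells exchange small molecules with the oocyte through gap junctions and supply it with glutathione and its precursors.

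RNA of rhesus monkey (Macaca mulatta) cumulus cells, the somatic cells around the oocyte in the cumulus-oocyte complex, was hybridized to 11 Affymetrix arrays, 1 sample to each. The 4 pre-maturation samples (PM) came from immature complexes of FSH-stimulated females. The 3 in vitro matured samples (IVM) came from complexes matured in culture after the same hormone, and the 4 in vivo matured samples (VVM) from complexes that completed maturation within the female, who received human chorionic gonadotropin (hCG) besides FSH. All groups therefore share FSH stimulation, and IVM and VVM differ both in place and in hCG. Strain, age and the number of animals were not given in the sources used here. Whether replicates are separate animals is thus unstated, the p-values cover the spread among these samples alone, which may be technical, and the number of arrays limits the precision.

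Values are log2 RMA intensities, on which 1 unit is a 2-fold difference. Array medians were 5.34 to 5.36 in PM, 5.45 to 5.53 in IVM and 5.43 to 5.49 in VVM, so that the median shifted by 0.15 from PM to IVM and by 0.11 from PM to VVM. Of 17 cumulus and granulosa markers 14 were measured, and their summed log2 intensity was 15.41 to 15.64 in PM, 15.19 to 15.50 in IVM and 14.87 to 15.13 in VVM. Of 18 leukocyte markers 14 were measured, with summed log2 intensities of 10.68 to 10.85 in PM, 10.04 to 10.26 in IVM and 9.80 to 11.95 in VVM, and none was at 0 in this table. These 14 did not move as one: 7 rose and 2 fell into VVM, and 3 rose and 2 fell into IVM. Between IVM and VVM 0 were higher and 2 were lower in IVM. Averaged over LYZ, TYROBP, CD14 and PTPRC, which mark leukocytes, the log2 level set apart VVM 2 at 7.48 and VVM 3 at 8.70, against 5.41 and 5.36 on VVM 1 and VVM 4, 4.50 to 4.70 in IVM and 4.23 to 4.56 in PM. The leukocyte covariate used below is the mean of these 4 genes alone. Of 10 theca and stroma markers 7 were measured, at summed log2 intensities of 8.60 to 9.01 in PM, 9.48 to 10.57 in IVM and 9.12 to 10.58 in VVM; 5 of the 7 rose into IVM, and their part in the results was not tested. Of the 13 oocyte markers 9 were measured, at 9.52 to 11.14, 9.69 to 9.76 and 9.48 to 10.20, with 1 call each for IVM against PM and IVM against VVM. Endothelial markers (7 of 8 measured) summed to 8.31 to 8.44, 8.67 to 8.80 and 8.58 to 10.16, and erythroid markers (3 of 8) to 8.88 to 10.47, 8.03 to 8.47 and 9.14 to 11.02, in the same order of groups. The bacterial hybridization controls were at 9.89 to 10.28 in PM, 11.46 to 12.18 in IVM and 10.41 to 11.32 in VVM, without overlap, so their level and the group cannot be told apart. Of the 135 genes, 78 lay above the array median on all 11 arrays and 24 on none, and 6 of the 9 conjugating enzymes were among those 24.

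The comparison of IVM with VVM asks how culture and in vivo maturation differ in these enzymes. Of the 135 genes, 26 (19.3%) differed at an adjusted p under 0.05, beside 16.7% of all genes. In IVM 14 of them had the higher level (10.4%, beside 9.06% of all genes) and 12 the lower (8.89%, beside 7.63%). The groups did not overlap array by array for 39 genes (28.9%), against 28.6% of all genes. The counts were thus near the background, and no role group had more than 3 calls in either direction. Of the 12 lower in IVM, 9 differed by at least 2-fold, but of the 14 higher only 3 did, namely the cytochrome P450 gene CYP3A5, the epoxide hydrolase gene EPHX1 and the sulfiredoxin gene SRXN1.

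The comparisons with PM describe what changes from the immature complex to either mature state. From PM to IVM 66 of the 135 changed (48.9%, beside 45.9% of all genes): 38 rose and 28 fell, 28.1% and 20.7% of the members, against 25% and 20.9% of all genes. From PM to VVM 49 changed (36.3%, beside 39.8% of all genes): 22 rose and 27 fell, 16.3% and 20% of the members, against 18% and 21.8% of all genes. Groups did not overlap for 71 members between IVM and PM (52.6%, with 50.3% of all genes) and for 46 between VVM and PM (34.1%, with 41.9%). Both comparisons use the same PM arrays, so their values are given side by side and their overlap is not read as a result. With each array centred on its own median the counts for IVM against PM were 22 higher and 34 lower, and with cyclic loess 23 and 27. For VVM against PM centring gave 18 and 31. Shares of all genes were not computed under these scalings. Whether the change in counts is particular to these members was therefore not tested. Of the 38 rises into IVM, 15 were of genes with a mean log2 under 6, close to the array medians.

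**Figure D1:**
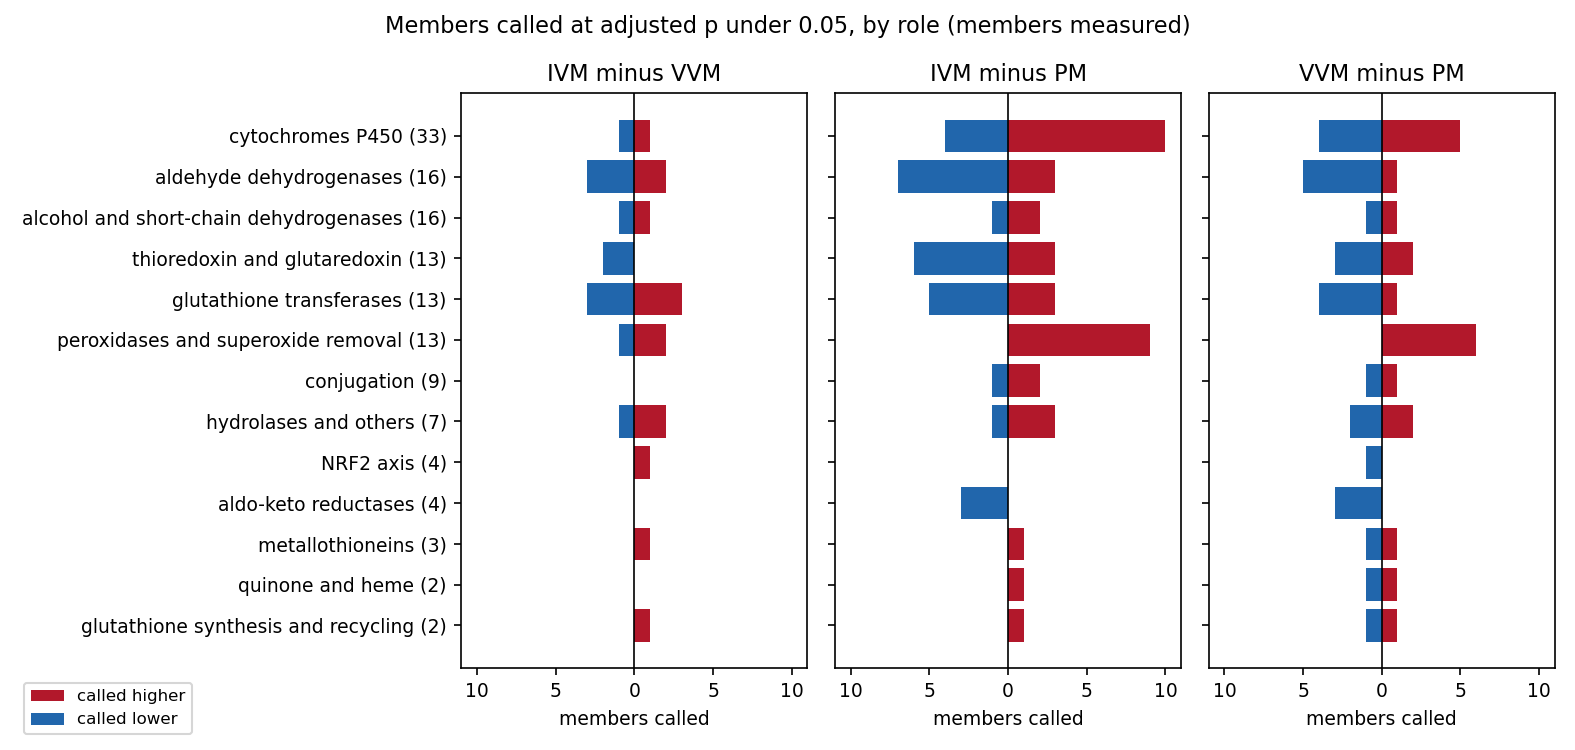
Number of members called higher (red, to the right) or lower (blue, to the left) at adjusted p under 0.05 in each role group, for IVM minus VVM, IVM minus PM and VVM minus PM; the number of members measured stands in brackets. The peroxidase group shows 9 rises and no fall in IVM minus PM, and the aldo-keto reductases show falls only in both comparisons with PM. Of all genes 25% rose and 20.9% fell in IVM minus PM, and 18% rose and 21.8% fell in VVM minus PM.

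Of the 13 genes for peroxide and superoxide removal, 9 rose from PM to IVM and none fell, where 25% of all genes rose and 20.9% fell. With each array centred on its median 4 rose and 1 fell, so the even direction of this group was lost with that scaling, and with cyclic loess 5 rose and none fell. From PM to VVM 6 rose and none fell, where 18% of all genes rose and 21.8% fell. After centring 5 rose and 1 fell. The shares of all genes are for values without centring or cyclic loess, and were not computed with them. Between IVM and VVM 2 were higher and 1 was lower in IVM, beside 9.06% and 7.63% of all genes.

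SRXN1 encodes sulfiredoxin, which restores peroxiredoxins that peroxide has overoxidized, and was measured by 1 probe set, marked as able to cross-hybridize. Its log2 level was 7.75, 7.99, 7.78 and 8.02 in PM, 9.76, 9.70 and 9.50 in IVM and 8.71, 8.62, 9.06 and 8.01 in VVM. The IVM arrays lay above all others, while VVM 4 lay within the range of PM. It was 3.41-fold higher in IVM than in PM (log2 difference 1.77 ± 0.20 SE, adjusted p = 0.000104) and 2.07-fold higher than in VVM (1.05 ± 0.20, adjusted p = 0.00763). The rise from PM to VVM was 0.72 ± 0.19, and it was lost with the leukocyte gene level as a covariate (0.25, adjusted p = 0.547) and without PM 1, VVM 2 and VVM 3 together (0.43, adjusted p = 0.23).

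SOD2 encodes the manganese superoxide dismutase of mitochondria. Its log2 level was 10.01, 9.56, 9.94 and 9.83 in PM, 10, 9.02 and 9.10 in IVM and 11.36, 11.53, 11.95 and 10.62 in VVM, so that each VVM array lay above every other array. It rose from PM to VVM (1.53 ± 0.28 SE, adjusted p = 0.00191), was lower in IVM than in VVM (-1.99 ± 0.30, adjusted p = 0.00231) and was not called between IVM and PM (-0.46 ± 0.30, adjusted p = 0.238). The highest values lay on VVM 2 and VVM 3, the arrays with the most leukocyte gene signal. With that signal as a covariate SOD2 was still lower in IVM than in VVM (-1.35, adjusted p = 0.0473), and the rise from PM to VVM was 0.83 (adjusted p = 0.154). The second SOD2 probe set went the other way, falling by 0.78 from PM to VVM and by 1.32 from PM to IVM, with no call between IVM and VVM (-0.54).

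SOD1, the cytosolic copper-zinc enzyme, rose by 0.37 ± 0.13 from PM to IVM, a call lost without PM 1, PM 4, IVM 1 or IVM 3 (adjusted p up to 0.121). PRDX4, the peroxiredoxin of the endoplasmic reticulum, rose in both mature states, by 0.95 ± 0.15 in IVM and by 0.57 ± 0.14 in VVM. GPX8, a peroxidase of the same compartment, was at 8.87, 8.69, 9.30 and 8.95 in PM, 10.04, 10.21 and 10.59 in IVM and 9.58, 9.75, 10.19 and 10.13 in VVM. Both mature groups lay above all PM arrays, with differences of 1.33 ± 0.20 for IVM and 0.96 ± 0.18 for VVM. The other GPX8 probe set showed neither (0.03 and -0.47), and the rise into VVM was lost with the leukocyte covariate (0.82, adjusted p = 0.0945). PRDX2, a cytosolic peroxiredoxin, was higher in IVM than in VVM by 0.90 ± 0.17 (adjusted p = 0.00621), with 2 of its 3 probe sets called; with the leukocyte covariate the difference was 0.68 and not called (adjusted p = 0.122). It rose by 0.47 ± 0.17 from PM to IVM, a call lost without any 1 of 5 arrays (adjusted p up to 0.106).

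CAT, the gene of catalase, was dim, at 5.27 to 5.55 in PM, 5.93 to 6.19 in IVM and 6.09 to 6.17 in VVM. It rose by 0.57 ± 0.11 into IVM and by 0.68 ± 0.10 into VVM, with 1 of its 2 probe sets called each time; with cyclic loess the rise into IVM was 0.34 and not called (adjusted p = 0.0521). PRDX6, which reduces phospholipid hydroperoxides, and GPX2, a glutathione peroxidase best known from the gut, were also dim, with rises into IVM of 0.45 ± 0.12 and 0.43 ± 0.16. Centring ended both calls, as it did those of SOD1 and PRDX2. GPX4, which protects membrane lipids from peroxidation, GPX7 of the endoplasmic reticulum and PRDX3 of mitochondria were not called in any comparison; their differences lay between -0.68 and 0.62.

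**Figure D2:**
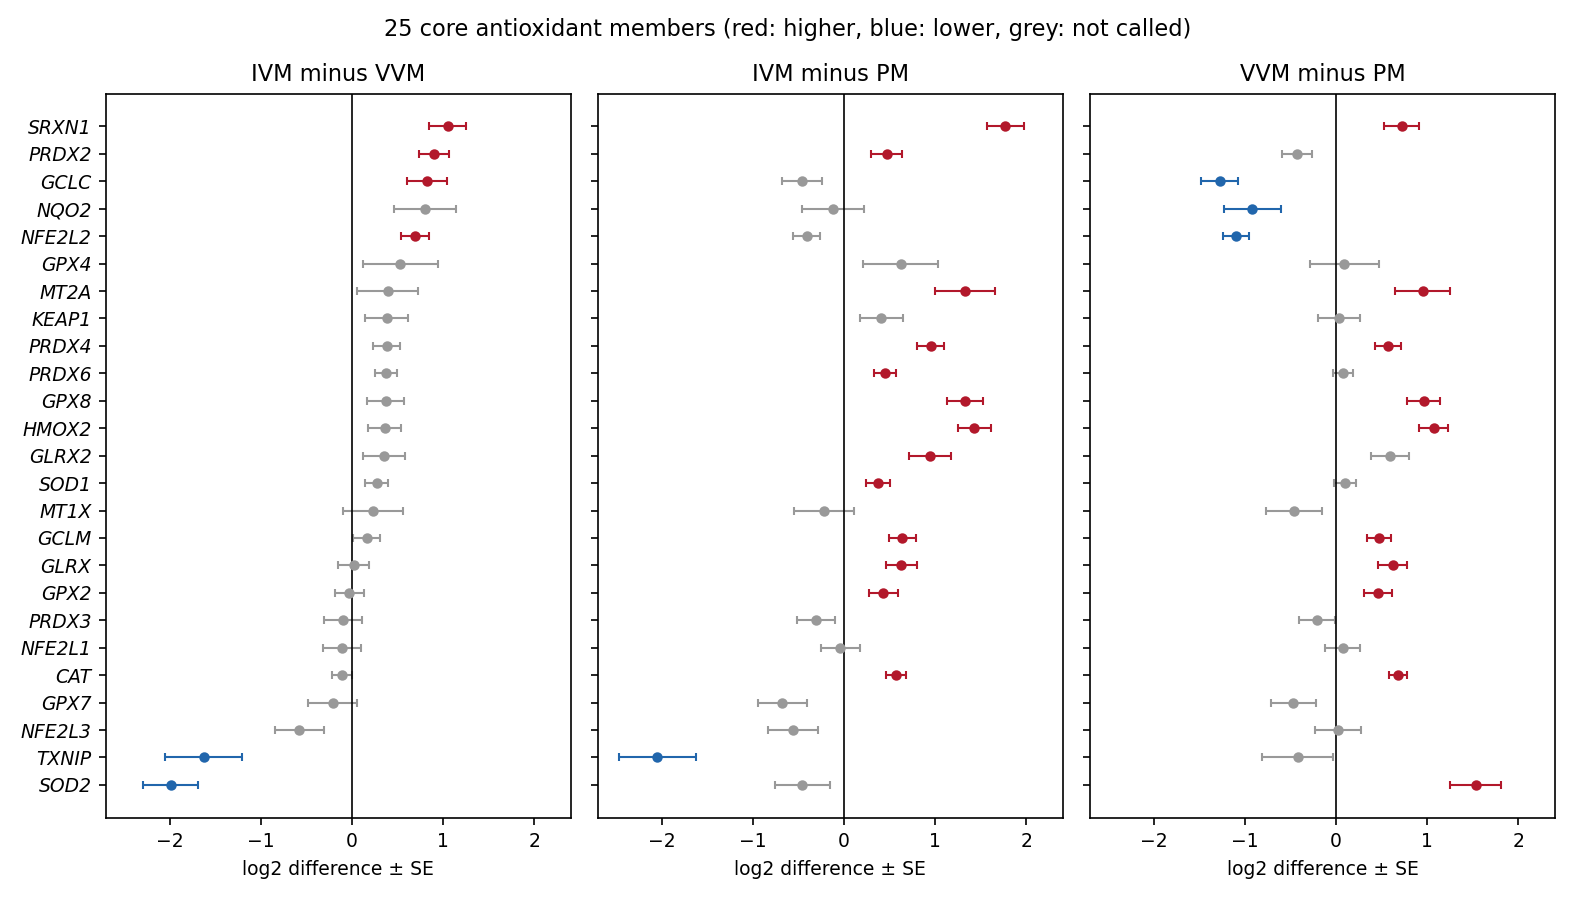
Log2 differences with SE (points and bars) of 25 antioxidant members in the 3 comparisons, ordered by IVM minus VVM; red marks higher, blue lower and grey not called. SRXN1 leads the rises in IVM over VVM at 1.05, SOD2 and TXNIP lie at the other end at -1.99 and -1.63, and NFE2L2 and GCLC lie below 0 in VVM minus PM.

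Of the 13 thioredoxin and glutaredoxin genes, 6 fell and 3 rose from PM to IVM, where 20.9% of all genes fell and 25% rose. From PM to VVM 3 fell and 2 rose, with 21.8% and 18% of all genes, and 2 were lower and none higher in IVM than in VVM, with 7.63% and 9.06%; the counts with VVM are near those shares. With cyclic loess 4 fell and 2 rose into IVM, and 2 fell and 2 rose into VVM. TXNDC11, a thioredoxin-domain protein of the endoplasmic reticulum, was the single member of the 135 called in opposite directions from PM. It was at 9.28, 9.18, 9.55 and 9.26 in PM, at 8.69, 8.36 and 8.68 in IVM and at 10.03, 10.08, 9.86 and 9.93 in VVM, with no overlap between any 2 groups. It fell by 0.74 (SE 0.13) into IVM, rose by 0.66 ± 0.12 into VVM and was 2.63-fold lower in IVM than in VVM (adjusted p = 0.000165).

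TXNIP, which binds and inhibits thioredoxin, was at 10.95, 11.80, 11.94 and 11.30 in PM, at 8.82, 9.45 and 10.07 in IVM and at 11.89, 10.24, 10.55 and 11.61 in VVM. The IVM arrays lay below all others, and PM and VVM overlapped. It fell by 2.05 (SE 0.42) from PM to IVM, in 3 of its 5 probe sets. The difference from VVM was -1.63 ± 0.42, a call lost without IVM 1, IVM 2, VVM 1 or VVM 4 (adjusted p up to 0.107). TXNDC16, another thioredoxin-domain protein of the endoplasmic reticulum, fell 6.72-fold into IVM (-2.75 ± 0.26) and 3.89-fold into VVM (-1.96 ± 0.24). TXNDC15 fell by 1.25 and 1.22, the latter being -1.01 and not called with the leukocyte covariate (adjusted p = 0.0885). Glutaredoxins did not move together. GLRX2, a mitochondrial one, rose by 0.94 ± 0.23 into IVM, and GLRX, the dim cytosolic one, rose by 0.63 ± 0.17 into IVM and 0.62 ± 0.16 into VVM, calls that cyclic loess ended. GLRX5, a mitochondrial protein of iron-sulfur cluster assembly, fell by 1.13 (SE 0.34) into IVM, a call lost without PM 1, PM 3, IVM 1 or IVM 2 (adjusted p up to 0.0754), and GLRX3 was not called (0.14 ± 0.19); both were named after their values were seen.

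NFE2L2 was bright on every array, at 11.38, 11.35, 11.31 and 11.11 in PM, 10.79, 10.64 and 11.19 in IVM and 10.29, 10.36, 10.17 and 9.93 in VVM. The VVM arrays lay below all others, and IVM 3 lay within the range of PM. NFE2L2 fell by 1.10 (SE 0.14) from PM to VVM (adjusted p = 0.000215) and was higher in IVM than in VVM by 0.69 ± 0.15 (adjusted p = 0.0149). Between IVM and PM the difference of -0.41 ± 0.15 was not called (adjusted p = 0.0512), but it was after centring (-0.56, adjusted p = 0.019). The call between IVM and VVM was lost with the leukocyte covariate (0.77, adjusted p = 0.0778). Both calls with VVM were made by 2 of the 5 NFE2L2 probe sets; the other 3 differed from PM by 0.29 to 0.42 in VVM without a call. KEAP1, which targets NRF2 for degradation, and the related factors NFE2L1 and NFE2L3 were not called in any comparison (differences of -0.58 to 0.41).

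The subunits of glutamate-cysteine ligase, which limits glutathione synthesis, went separate ways. GCLC, the catalytic subunit, was at 12.49 to 12.84 in PM, at 11.96, 12.32 and 12.41 in IVM and at 10.93, 11.62, 11.93 and 11.17 in VVM. It fell by 1.28 (SE 0.20) from PM to VVM, in 3 of 5 probe sets, and was higher in IVM than in VVM by 0.82 ± 0.22, in 1 of 5; the latter call did not survive leaving out IVM 2, IVM 3, VVM 1 or VVM 4 (adjusted p up to 0.115). GCLM, the modifier subunit, rose by 0.64 ± 0.15 into IVM and by 0.47 ± 0.13 into VVM, the second lost without PM 1, PM 2 or VVM 2 and after centring. HMOX2, the constitutive heme oxygenase, rose by 1.43 ± 0.18 into IVM and by 1.07 ± 0.16 into VVM, with all IVM and VVM arrays (8.79 to 9.62) above all PM arrays (7.76 to 8.32). NQO2, a quinone reductase, fell by 0.92 (SE 0.31) into VVM, a call that was lost in 8 of the 11 fits that left out 1 array.

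Metallothioneins bind zinc and copper and scavenge radicals. MT2A was at 11.67, 13.29, 13.12 and 12.50 in PM, 14.13, 13.98 and 13.84 in IVM and 13.40, 13.76, 13.94 and 13.28 in VVM, and it rose by 1.33 ± 0.33 into IVM. The PM arrays spread widely, and the rise into VVM of 0.95 ± 0.30 was lost without any 1 of 5 arrays (adjusted p up to 0.0872). MT1E, on 1 probe set marked as able to cross-hybridize, differed in the other sense. It fell by 0.64 (SE 0.19) into VVM, a call lost without PM 2 or PM 3. It was higher in IVM than in VVM by 0.82 ± 0.20, a call lost without IVM 1 or IVM 2. With the leukocyte covariate the differences were -0.69 (adjusted p = 0.174, limma) and 0.87 (adjusted p = 0.136, limma), neither called. MT1X was not called. Probe sets of the closely similar MT1 genes are open to cross-hybridization.

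Around this axis, 20 of 25 listed partners of NRF2 and other stress regulators were measured. Of these 1 was higher and 5 were lower in IVM than in VVM, where 9.06% and 7.63% of all genes were. BACH1, a heme-sensing repressor that competes with NRF2 for the same sites, was at 7.81, 7.54, 7.80 and 7 in PM, 7.75, 7.16 and 7.17 in IVM and 9.98, 9.86, 9.91 and 9.94 in VVM. The VVM arrays stood far above both other groups, which overlapped. It rose by 2.38 ± 0.19 from PM to VVM, was not called between IVM and PM (-0.18 ± 0.20) and was lower in IVM than in VVM by 2.56 on the log2 scale (-2.56 ± 0.20, adjusted p = 9.26e-05). MAFF, a small MAF protein that pairs with both factors, fell by 2.49 (SE 0.22) from PM to IVM and was lower there than in VVM (-1.91 ± 0.22). BLVRB, which reduces biliverdin and flavins, rose by 2.22 ± 0.17 into IVM and by 1.35 ± 0.16 into VVM. From PM, 2 of the 20 rose and 4 fell into IVM, where 25% and 20.9% of all genes did. Into VVM 7 rose and 3 fell, where 18% and 21.8% of all genes did.

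**Figure D3:**
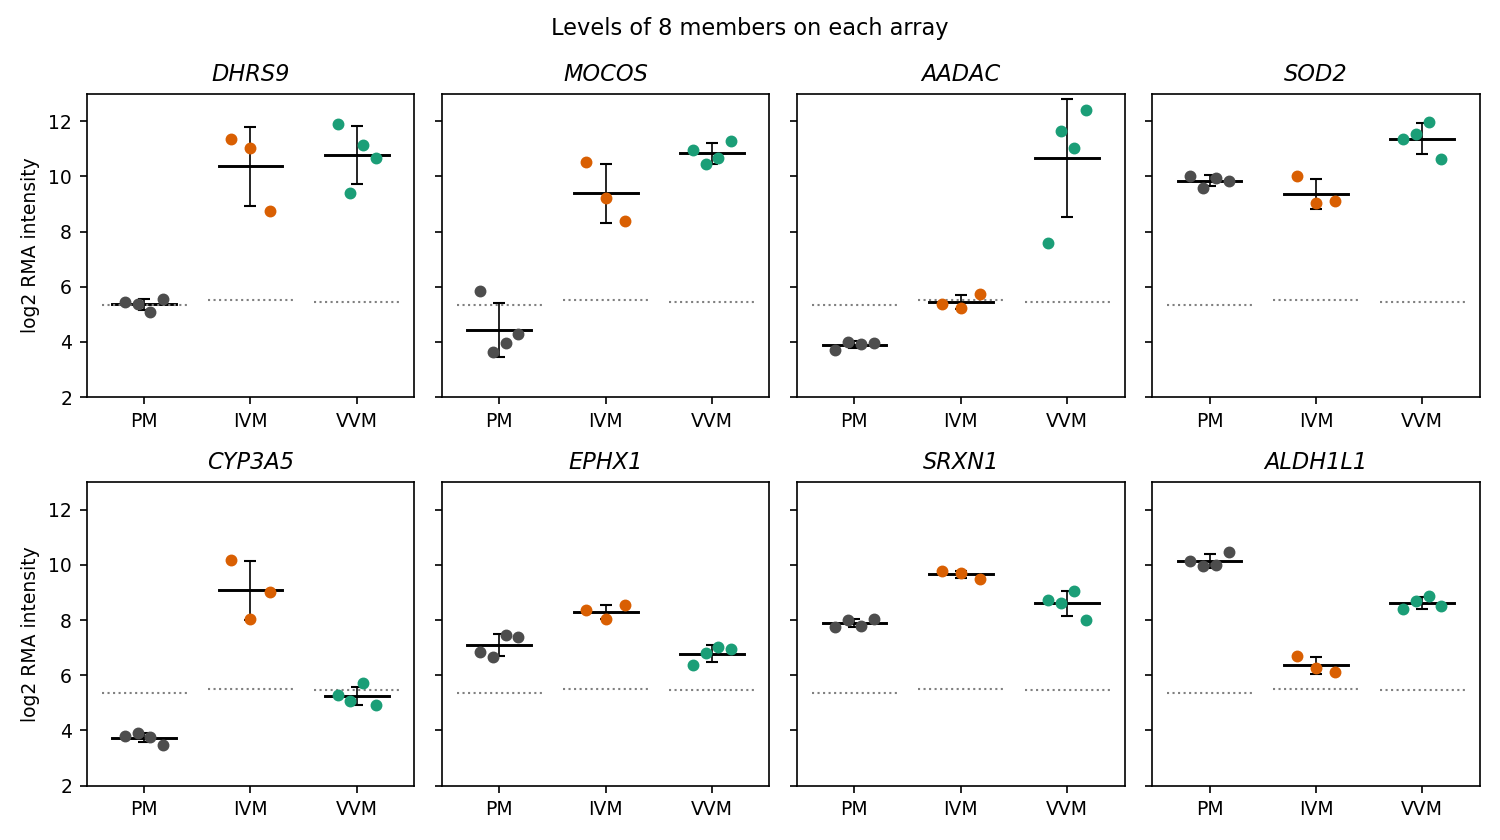
Log2 RMA intensity of 8 members on each of the 11 arrays (points), with the group mean (thick line) and SD (bars); dotted lines mark the mean array median of each group. DHRS9 and MOCOS are high in IVM and VVM, AADAC and SOD2 are highest in VVM, CYP3A5, EPHX1 and SRXN1 are highest in IVM, and ALDH1L1 is lowest in IVM.

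Glutathione transferases conjugate glutathione to electrophiles, and their genes split within families. Of 13, IVM exceeded VVM for 3 and lay below it for 3, 3 rose and 5 fell into IVM, and 1 rose and 4 fell into VVM. The shares over all genes, in the same order, were 9.06% and 7.63%, 25% and 20.9%, and 18% and 21.8%. GSTM3, a mu-class transferase, was at 11.96, 10.82, 11.55 and 11.21 in PM, 12.29, 12.65 and 12.02 in IVM and 13.15, 12.80, 13.53 and 13.55 in VVM, a sequence without overlap. It rose by 1.87 ± 0.25 into VVM and by 0.93 ± 0.27 into IVM, the latter lost without IVM 2 (adjusted p = 0.0791). Its lower level in IVM than in VVM (-0.94 ± 0.27) was lost in 8 of the 11 fits that left out 1 array. GSTM4, which lies near it in the current rhesus assembly and was named after its values were seen, fell by 1.14 (SE 0.33) into IVM, a call lost without IVM 1 (adjusted p = 0.0815).

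GSTA4, which clears the lipid peroxidation product 4-hydroxynonenal, had the opposite order to GSTM3. It was at 12.02, 12.31, 12.31 and 12.62 in PM, 11.07, 10.85 and 11.58 in IVM and 10.81, 10.14, 10.40 and 9.89 in VVM, again without overlap. It fell by 1.15 (SE 0.23) into IVM and by 2.01 (SE 0.22) into VVM, while its neighbour GSTA3, also named after its values were seen, rose by 0.83 ± 0.24 into IVM, a call lost without IVM 2 or IVM 3 (adjusted p up to 0.0598). The higher level of GSTA4 in IVM than in VVM (0.86 ± 0.23) was lost in 7 of the 11 fits that left out 1 array. GSTA and GSTM probe sets are open to cross-hybridization within their families.

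GSTK1, a transferase of mitochondria and peroxisomes, was higher in IVM than in VVM by 0.96 ± 0.17 and fell by 0.79 (SE 0.16) into VVM. GSTT1, a theta-class enzyme, was lower in IVM than in VVM (-1.10 ± 0.17) and than in PM (-0.68 ± 0.17), and its call against VVM was kept in all 14 alternatives. GSTZ1, an enzyme of tyrosine breakdown, was at 9.70, 9.84, 9.73 and 9.22 in PM, 7.50, 7.44 and 8.49 in IVM and 10.79, 9.98, 8.86 and 10.36 in VVM. Its difference of -2.19 ± 0.40 between IVM and VVM came from 1 of 3 probe sets, a set marked as able to cross-hybridize, and was -0.68 without it. GSTCD, which carries only the C-terminal domain of a transferase, fell by 2.38 (SE 0.27) into IVM and by 2.20 (SE 0.25) into VVM, in 1 of 3 probe sets and to levels around the array medians. GSTP1, named after its values were seen, was higher in IVM than in both VVM (0.81 ± 0.13) and PM (0.79 ± 0.13).

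Most of the 33 cytochrome P450 genes were dim, with 11 above the array median on every array and 8 on none. From PM to IVM 10 rose and 4 fell, where 25% of all genes rose and 20.9% fell. After centring 5 rose and 6 fell, and with cyclic loess 5 and 4. From PM to VVM 5 rose and 4 fell, where 18% of all genes rose and 21.8% fell. Between IVM and VVM 1 was higher and 1 was lower in IVM, with 9.06% and 7.63% of all genes. CYP3A5, a broad-range drug and steroid hydroxylase, was at 3.80, 3.90, 3.78 and 3.49 in PM, 10.16, 8.05 and 9.01 in IVM and 5.27, 5.08, 5.71 and 4.94 in VVM. Each IVM array lay far above all others, while PM lay below the array medians and VVM close to them. The fold in this probe set, which is marked as able to cross-hybridize, was 40.4 over PM (5.33 ± 0.38, adjusted p = 8.53e-06) and 14.1 over VVM (3.82 ± 0.38, adjusted p = 0.000272). With cross-hybridizing probe sets left out, the brightest CYP3A5 set gave 1.55 over PM (adjusted p = 0.0115) and 1.52 over VVM (adjusted p = 0.0349), so the size of the change rests on the probe set.

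All 3 CYP3A5 probe sets were called higher in IVM than in PM and VVM, and the remaining one, not marked, gave 5.41 and 4.54. The rise from PM to VVM (1.51 ± 0.35) was called in the marked probe set alone. The difference was 0.03 in the brightest unmarked set (adjusted p = 0.961, limma). It was 0.81 in the mean of the 3 sets, also not called (adjusted p = 0.0899, limma). CYP3A4, the main hepatic drug oxidase of the same cluster, was higher in IVM than in PM by 1.59 ± 0.49, with 8.43 on IVM 1 but 6.12 and 6.31 on the others, and the call was lost without PM 2, PM 4 or IVM 1 (0.85 to 2). CYP3A probe sets are open to cross-hybridization among these genes.

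CYP4F11, a fatty acid and vitamin K hydroxylase, was at 7.85, 6.91, 8.18 and 7.86 in PM, 4.86, 4.73 and 4.94 in IVM and 7.10, 6.79, 6.08 and 6.85 in VVM. IVM lay below the array medians, and the groups PM and VVM overlapped. It was 7.25-fold lower in IVM than in PM (-2.86 ± 0.29) and 3.63-fold lower than in VVM (-1.86 ± 0.29). A second probe set was called in the same direction for both, and the other, a dim one, was higher in IVM than in PM (0.40). CYP1B1, which hydroxylates estradiol, was at 3.93 to 4.55 in PM, 4.17 to 5.51 in IVM and 5.11 to 6.09 in VVM, and rose by 1.49 ± 0.28 into VVM in all 3 probe sets. With the leukocyte covariate the difference was 1.13 (adjusted p = 0.12) and without PM 1, VVM 2 and VVM 3 it was 1.20 (adjusted p = 0.0742), neither called. CYP2A23, a macaque CYP2A enzyme, fell by 1.51 (SE 0.28) into IVM in 1 of 2 probe sets. The mean of its probe sets differed by -0.40 and was not called (adjusted p = 0.213, limma).

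Among the redox partners and xenobiotic receptors of P450 enzymes, 20 of 26 were measured. POR, the reductase that supplies microsomal P450 enzymes with electrons from NADPH, was at 11.93, 11.91, 12.11 and 11.92 in PM, 11.30, 11.63 and 11.98 in IVM and 9.33, 10.65, 10.17 and 9.67 in VVM. It fell by 2.02 (SE 0.25) from PM to VVM and was higher in IVM than in VVM by 1.68 ± 0.27 (adjusted p = 0.00304). CYB5A, the microsomal cytochrome b5, rose in both states, by 1.62 ± 0.14 and 1.59 ± 0.13. In all, IVM exceeded VVM for 2 of the 20 and lay below it for 3, 7 rose and 5 fell into IVM, and 8 rose and 6 fell into VVM. The matching shares of all genes were 9.06% and 7.63%, 25% and 20.9%, and 18% and 21.8%.

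Of the 16 aldehyde dehydrogenases, 7 fell and 3 rose from PM to IVM, where 20.9% of all genes fell and 25% rose, and after centring 7 fell and 1 rose. From PM to VVM 5 fell and 1 rose, where 21.8% and 18% of all genes did, so the falls are near the background. ALDH1L1, a folate enzyme that oxidizes 10-formyltetrahydrofolate to carbon dioxide, was at 10.13, 9.97, 9.98 and 10.48 in PM, 6.71, 6.26 and 6.13 in IVM and 8.39, 8.68, 8.88 and 8.52 in VVM. The groups were well apart, with IVM lowest. It fell 13.7-fold into IVM (-3.77 ± 0.18, adjusted p = 2.33e-06) and 2.88-fold into VVM (-1.52 ± 0.17), and was 4.76-fold lower in IVM than in VVM (-2.25 ± 0.18, adjusted p = 9.26e-05). These calls were kept in all 14 alternatives and all 11 fits that left out 1 array, and its fall was the single call between IVM and PM left with the hybridization controls as a covariate.

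ALDH18A1, which makes the proline precursor pyrroline-5-carboxylate, was at 11.50 to 12.02 in PM, 10.71 to 11.10 in IVM and 9.57 to 10.20 in VVM. It fell by 0.92 (SE 0.18) into IVM and by 1.81 (SE 0.17) into VVM, and was higher in IVM than in VVM by 0.89 ± 0.18, which was 0.66 and not called with the leukocyte covariate (adjusted p = 0.174). ALDH6A1, an enzyme of valine breakdown, showed the reverse: it rose by 1.45 ± 0.20 into VVM, in 2 of 4 probe sets. Its level was lower in IVM than in VVM (-1.51 ± 0.22), in 3 of 4 probe sets. ALDH7A1, which oxidizes aldehydes of lysine breakdown, fell by 1.76 (SE 0.26) into IVM and 1.29 (SE 0.24) into VVM, in both probe sets; with the leukocyte covariate the latter was -1.28 and not called (adjusted p = 0.0546). Of the 4 aldo-keto reductases, 3 fell in each comparison with PM and none was called between IVM and VVM. Of all genes 20.9% fell into IVM, 21.8% fell into VVM and 16.7% were called between IVM and VVM. Both comparisons with PM use the same PM arrays, and the group is small. AKR1A1, a general aldehyde reductase, fell by 1.22 (SE 0.16) and 1 (SE 0.15), AKR7A2, which reduces dialdehydes, by 0.87 (SE 0.20) and 1.35 (SE 0.19), and AKR1D1, the steroid 5-beta-reductase, by 1.09 (SE 0.33) and 1.16 (SE 0.31). The fall of AKR1D1 into IVM was lost without PM 2, PM 3, IVM 1 or IVM 2 (adjusted p up to 0.0744). With the leukocyte covariate its fall into VVM was -0.36 (adjusted p = 0.578) and that of AKR1A1 -0.70 (adjusted p = 0.0535), neither called.

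DHRS9, a microsomal dehydrogenase that acts on retinol and 3-alpha-hydroxysteroids, had 1 probe set. It was at 5.43, 5.37, 5.09 and 5.54 in PM, 11.36, 11.01 and 8.73 in IVM and 11.88, 9.40, 11.15 and 10.66 in VVM. PM was close to the array medians, every mature array was more than 3 log2 units above it, and IVM and VVM overlapped. The rises were 5.00 ± 0.63 into IVM (32.1-fold, adjusted p = 0.000167) and 5.42 ± 0.58 into VVM (42.7-fold, adjusted p = 7.08e-05), and the difference between the mature groups was -0.41 ± 0.63 (adjusted p = 0.724). DHRS7, a short-chain dehydrogenase of the endoplasmic reticulum, fell by 1.17 (SE 0.13) into IVM and was lower there than in VVM (-0.85 ± 0.13), though a second, dim probe set rose by 0.48 into IVM. DHRS3, which reduces retinal to retinol, and DHRS2 were not called; DHRS2 was at 9.03 on IVM 3 and at 6.74 and 7.26 on the other IVM arrays.

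Of 20 listed retinoid-handling genes 14 were measured, and 5 rose and 2 fell into IVM, 4 rose and 2 fell into VVM, and 1 was higher in IVM than in VVM. Among all genes the shares were 25% and 20.9%, 18% and 21.8%, and 9.06%. RARRES1, named for its response to retinoic acid, was at 3.34 to 3.83 in PM, 6.59 to 7.40 in IVM and 6.89 to 8.60 in VVM, and rose by 3.43 ± 0.35 and 4.29 ± 0.32. RDH10, which oxidizes retinol to retinal, rose by 2.31 ± 0.44 into IVM and by 1.36 ± 0.41 into VVM, the second lost without PM 1, PM 4, VVM 1 or VVM 4. The retinoic acid hydroxylases CYP26A1 and CYP26B1, named after their values were seen, were dim and not called.

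AADAC encodes arylacetamide deacetylase, an esterase of the endoplasmic reticulum that hydrolyses drugs and neutral lipids. It was at 3.71, 3.99, 3.91 and 3.96 in PM, 5.39, 5.24 and 5.73 in IVM and 7.58, 11.65, 11.04 and 12.39 in VVM. The 3 groups did not overlap, PM lay well below the array medians, and VVM 1 lay far under the other VVM arrays. The difference was 6.78 ± 0.78 for VVM over PM (adjusted p = 0.000111), -5.21 ± 0.85 for IVM against VVM (adjusted p = 0.00324) and 1.56 ± 0.85 for IVM over PM, not called (adjusted p = 0.159), although it was when only these 2 groups were fitted (adjusted p = 0.000292) or VVM 1 was left out (adjusted p = 0.00149). With the leukocyte covariate the difference from VVM was -4.40 (adjusted p = 0.0605). The other AADAC probe set differed by -0.07 between VVM and PM and was not called.

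MOCOS encodes the sulfurase that activates the molybdenum cofactor of xanthine and aldehyde oxidases. It was at 5.84, 3.65, 3.96 and 4.30 in PM, 10.52, 9.23 and 8.39 in IVM and 10.94, 10.43, 10.67 and 11.29 in VVM, on 1 probe set that is marked as able to cross-hybridize. PM 1 alone in its group was above the array median, and both mature groups lay above all PM arrays. MOCOS rose by 4.95 ± 0.54 into IVM (adjusted p = 7.24e-05) and by 6.40 ± 0.50 into VVM (adjusted p = 1.36e-05). The difference of -1.45 ± 0.54 between IVM and VVM was not called (adjusted p = 0.111) but was without IVM 1 (-2.02, adjusted p = 0.038). XDH, the xanthine dehydrogenase it serves, rose by 1.07 ± 0.13 into IVM from a dim level, and MOCS2, which builds the cofactor, fell by 1.06 (SE 0.23) into IVM and was lower there than in VVM (-1.03 ± 0.23), the latter lost without IVM 2.

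EPHX1, the microsomal epoxide hydrolase, had 1 probe set, marked as able to cross-hybridize, and was at 6.86, 6.66, 7.46 and 7.38 in PM, 8.35, 8.02 and 8.53 in IVM and 6.36, 6.79, 7.02 and 6.96 in VVM. Only IVM stood apart: the gene was 2.87-fold higher than in VVM (1.52 ± 0.23, adjusted p = 0.00216) and 2.31-fold higher than in PM (1.21 ± 0.23). EPHX2, the soluble hydrolase of fatty acid epoxides, fell in both states, by 1.60 (SE 0.31) and 1.41 (SE 0.29), the latter being -0.88 and not called with the leukocyte covariate (adjusted p = 0.203). CES2, a carboxylesterase, fell by 1.26 (SE 0.17) into VVM in all 3 probe sets and was higher in IVM than in VVM by 0.84 ± 0.19 in 1 of them; with the leukocyte covariate the difference was 0.99 and not called (adjusted p = 0.0587). Among 9 conjugating enzymes SULT1C4, a sulfotransferase, fell by 2.26 (SE 0.21) into IVM and by 2.38 (SE 0.19) into VVM. None of the 9 differed between IVM and VVM at the threshold, where 16.7% of all genes did, and their differences were -0.32 to 0.23.

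**Figure D4:**
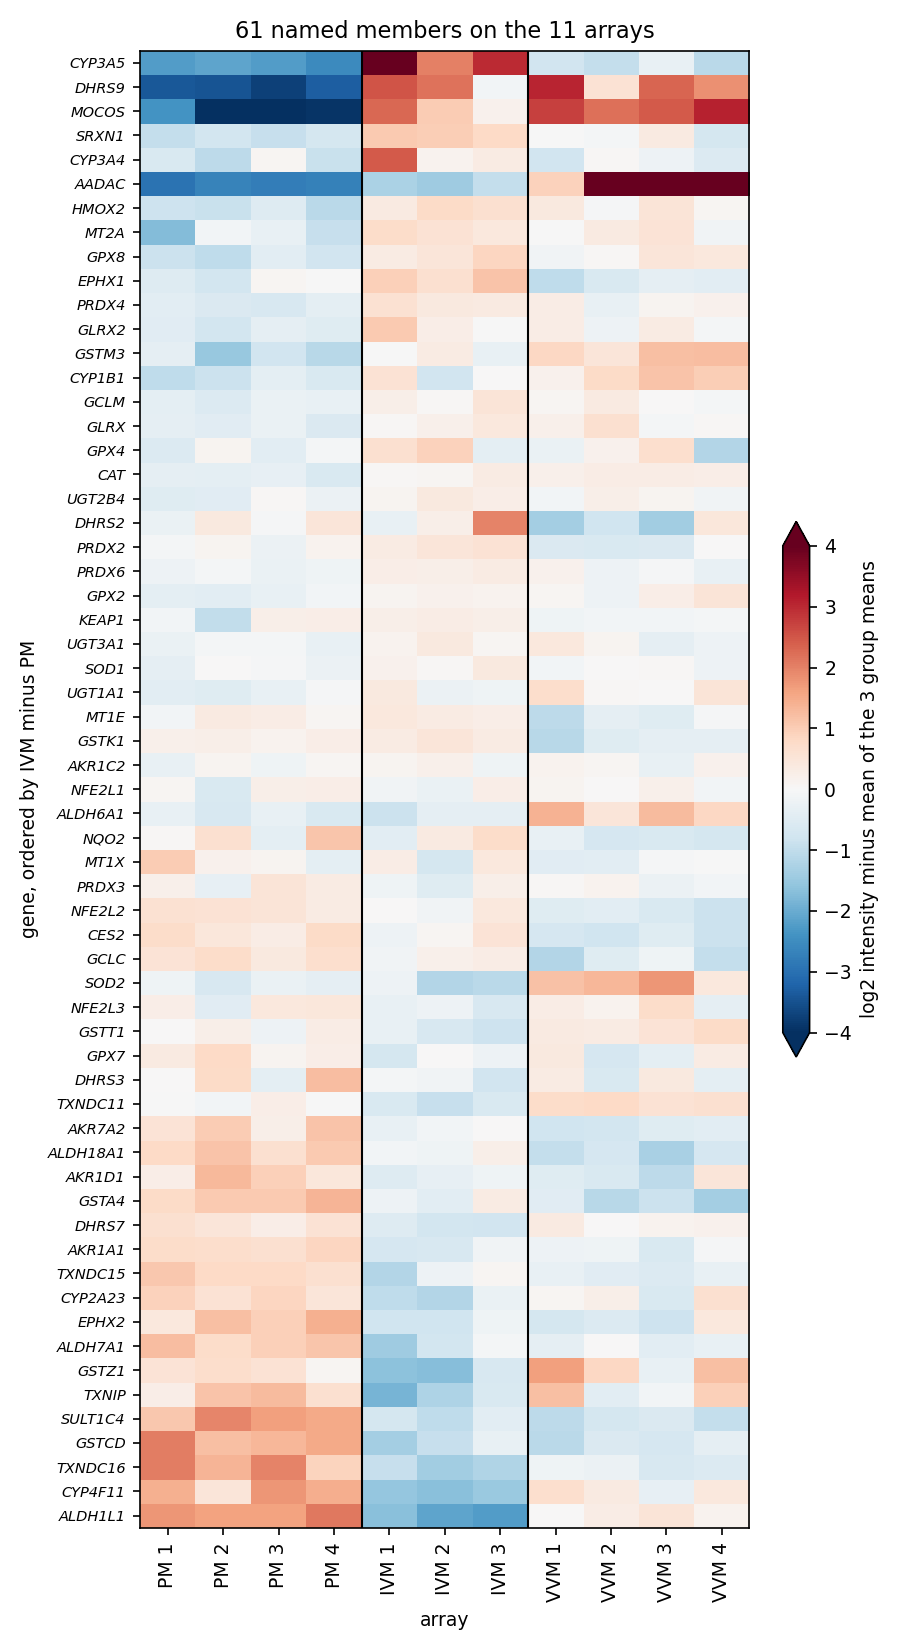
Log2 intensity of the 61 members chosen by the naming rule on each array, minus the mean of the 3 group means (colour, capped at 4 units either way), ordered by IVM minus PM. CYP3A5 and DHRS9 lead the list and ALDH1L1 closes it; SOD2, AADAC and ALDH6A1 are highest on the VVM arrays.

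Of 23 listed genes that supply NADPH and glutathione precursors, 12 were measured. SLC7A11, the cystine importer that feeds glutathione synthesis, was at 3.67, 5.24, 3.93 and 3.94 in PM, 6.51, 8.73 and 9.39 in IVM and 4.12, 4.60, 4.47 and 3.84 in VVM. Only the IVM arrays lay above the array medians, and the differences were 3.95 ± 0.58 from VVM and 4.01 ± 0.58 from PM. TALDO1, of the pentose phosphate pathway, was also higher in IVM, by 0.95 ± 0.12 than in VVM and 1.12 ± 0.12 than in PM. NNT, the mitochondrial transhydrogenase that makes NADPH, fell by 1.60 (SE 0.30) into IVM and 1.44 (SE 0.28) into VVM. In this list IVM exceeded VVM for 2 genes and lay below it for 1, 4 rose and 5 fell into IVM, and 1 rose and 4 fell into VVM. For all genes the shares were 9.06% and 7.63%, 25% and 20.9%, and 18% and 21.8%.

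Sources of reactive oxygen were measured for 13 of 15 listed genes. NOS2, the inducible nitric oxide synthase, was at 11.32, 12.09, 9.79 and 11.36 in PM, 6.68, 6.56 and 7.20 in IVM and 7.14, 8.15, 7.01 and 6.52 in VVM. It fell by 4.33 (SE 0.49) into IVM and by 3.93 (SE 0.45) into VVM. CYBA, a subunit of NADPH oxidases, was higher in IVM than in VVM by 1.17 ± 0.25, and ERO1A, which makes peroxide while forming disulfide bonds, was lower (-1.89 ± 0.36). These were the 2 genes of the list called between the mature groups, where 16.7% of all genes were called. Into IVM 1 rose and 1 fell, with 25% and 20.9% of all genes, and into VVM 4 rose and 2 fell, with 18% and 21.8%.

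In IVM against VVM, 3 of the 14 higher members and none of the 12 lower ones had a mean log2 under 6. Of the called members with several probe sets, a second probe set was called in the same direction for 6 of 15 in IVM against VVM, 16 of 29 in IVM against PM and 15 of 25 in VVM against PM. A probe set called in the opposite direction was found for CYP4F11 and DHRS7 in IVM against PM and for SOD2 and TXNDC9 in VVM against PM; TXNDC9 was named after its values were seen. In bulk RNA, fewer cells of a type and less RNA per cell cannot be told apart in any of these values.

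**Figure D5:**
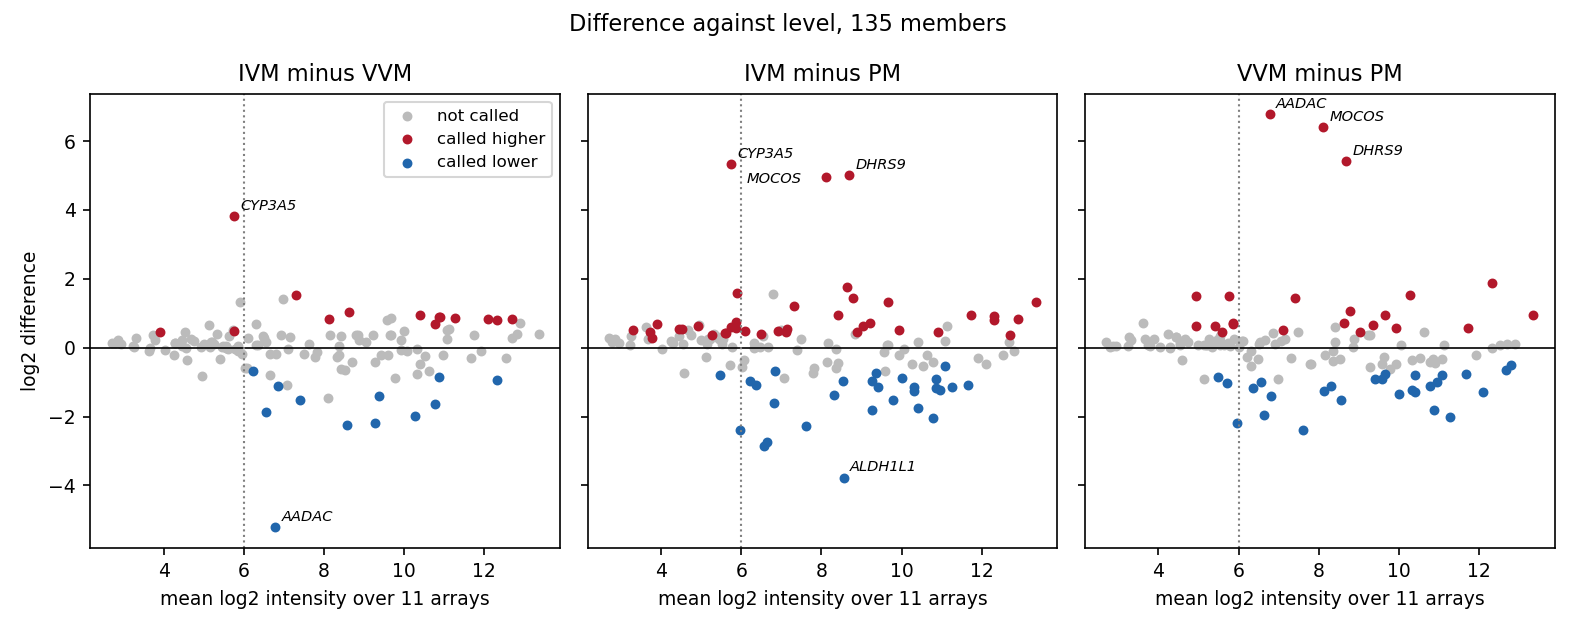
Log2 difference of all 135 members against their mean log2 intensity over the 11 arrays, in the 3 comparisons, with the dotted line at 6; red marks higher, blue lower and grey not called. The falls lie almost entirely to the right of the line, and 15 of the 38 rises in IVM minus PM lie to its left.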

How the data were processed

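The deposited intensity values are RMA signals on a linear scale, made by the authors with Affymetrix Expression Console, per the submitters' processing notes; versions were not given in the sources used here. RNA (50 ng per sample, per the labels) was amplified during labelling, which can distort levels. Log2 was taken without a pseudocount. The 99 control probe sets were left out, leaving 52766. Symbols came from the array annotation, where 24956 probe sets had 1 symbol, 361 several and 27449 none; 24629 of 25330 rows matched RefSeq by gene identifier. Each gene was represented by its probe set with the highest mean over the 11 arrays. Probe sets whose names end in _s_at or _x_at, the maker's marks for probes shared between transcripts, are called able to cross-hybridize. No detection calls were used, so folds against a group that lies under the array medians are lower bounds at best.

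Differences came from 1 linear model of the 3 group means (limma 3.58.1, R 4.3.3), tested on simulated data, with two-sided p-values and Benjamini-Hochberg adjustment across all 52766 probe sets in each comparison. A gene was called at an adjusted p under 0.05, and rose, fell, higher and lower refer to called genes. The members, the supporting lists and the settings were chosen with earlier results of these data known. Genes were named by rule: in each comparison the 10 largest rises and 10 largest falls without overlap, 27 measured genes of a core set of 40, up to 4 members of each role group with the largest differences, members called in opposite directions from PM, and up to 4 genes of each supporting list. The other 13 core genes, among them GPX1, PRDX1, TXN, NQO1 and HMOX1, are not analysed here. There were 14 alternatives and 11 fits that left out 1 array. Replicate numbers did not pair the arrays, since same-numbered arrays had residual correlations of -0.107 to 0.101 over 10 pairs. No sequences were used. Genome positions served only to tell which genes are neighbours, from the gene order in the RefSeq table of the T2T-MMU8v2.0 assembly.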

Additional observations from a re-analysis of the deposited data

Results flagged for a closer look

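TXNDC11 moved in opposite directions from PM in the 2 mature groups, and the difference between them was -1.40 on the log2 scale for IVM minus VVM (adjusted p = 0.000165, limma). Single arrays stood apart from the rest of their group in 3 of the 122 groups of 4 arrays checked, and chance flags about 1 in 20. PRDX2 was at 10.95 on VVM 4, against 10.33 to 10.35 on the other VVM arrays. GSTK1 was at 9.31 on VVM 1, against 9.95 to 10.07, and the aldo-keto reductase gene AKR1C2 was at 5.24 on VVM 3, against 5.62 to 5.69.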

How the results depend on the processing

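Leaving out each array in turn gave 10 to 14 higher and 9 to 14 lower members for IVM against VVM, 26 to 36 and 22 to 30 for IVM against PM, and 18 to 23 and 24 to 27 for VVM against PM, and 18 of 26, 42 of 66 and 40 of 49 calls were kept in all 11 such fits. Scaling bore on the rises from PM to IVM, which were 22 after centring on array medians, 23 with cyclic loess and 23 among genes with a mean log2 of at least 6, against 38. At an adjusted p under 0.01, 6 members were higher in IVM than in VVM and 18 higher than in PM. With a 2-fold minimum 3 were higher in IVM than in VVM, 9 higher in IVM than in PM, and 9 higher and 16 lower in VVM than in PM. With the leukocyte level as a covariate 8 were higher in IVM than in VVM, of which 6 are among the 14, and 13 were higher and 14 lower in VVM than in PM. Without PM 1, VVM 2 and VVM 3, 7 were higher in IVM than in VVM, 25 higher in IVM than in PM, and 13 higher and 17 lower in VVM than in PM. Shares of all genes were not computed for these settings or for those that follow, so the counts have no background beside them.

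The hybridization control level separates the groups, so its part and that of the group cannot be told apart. With it as a covariate limma called 3 higher and 4 lower members for IVM against VVM, 0 and 1 for IVM against PM (13 and 9 at an unadjusted p under 0.05), and 9 and 12 for VVM against PM. Of 405 member comparisons the sign then turned in 9 in which a call was involved and in 87 with no call under either setting, and among the former, for IVM minus PM, are CYP3A4 (-0.24), GSTA4 (0.12) and GSTZ1 (0.23), not called there. The partner gene MOCS2 also turned (0.06). The replicate block, which rests on shared numbers alone, gave 23 calls in IVM against VVM (21 of the 26), 53 in IVM against PM (52 of the 66) and 47 in VVM against PM (46 of the 49). No detection calls were used, so values near the array medians limit what can be said of the 24 genes below the median on every array.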
